A study of Mus musculus with 12 samples.

Results

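Transcripts of 10 genes of the Notch pathway were followed through the development of the mouse cortex. They are the receptors Notch1, Notch2 and Notch3, the ligands Dll1 and Jag1, the nuclear factor Rbpj, and Hes1, Hes5, Hes6 and Hey1, which encode transcription factors of the Hes and Hey families. All probes that the array's annotation assigns to these symbols were taken, 16 of 45281 probes, and the 10 genes are among 19057 with an annotated probe. Cortical total RNA from mouse embryos of 3 ages, E12.5 (day of embryonic development), E15.5 and also E18.5, was labeled with biotin and hybridized to Illumina bead arrays, 4 arrays per stage. The labels give the stage and the tissue of each sample and name no treatment or mutation. By the series' description 4 embryos were used for each age, as many as there are arrays, but nothing used here says that each array held 1 embryo, so p-values measure only the spread between these samples, which may be technical.

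A receptor of the Notch family is activated when a ligand on a neighboring cell binds it, after which its intracellular part is cut free by gamma-secretase and enters the nucleus. There it joins Rbpj, the DNA-binding partner of all Notch receptors, and turns on genes such as Hes1, Hes5 and Hey1, whose products repress proneural genes. In the embryonic cortex the pathway is best known for keeping radial glia, the progenitors that line the ventricle, from becoming neurons, while newborn neurons and intermediate progenitors carry the ligand Dll1.

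The regions just upstream of 8 of the 10 members, with 11 start sites, were read from RefSeq (GRCm38.p6), each as the 250 bases before the start. No such sequence was at hand for Hes1 and Hey1, so whether they hold either motif below was not looked at. GTGGGAA, the core of the sequence that Rbpj binds, and CACNAG, the N box bound by Hes proteins, were searched on both strands, and neither overlapped the other in a member. GTGGGAA was found at 1 of the 11 start sites, that of Hes5, which held 2 copies. Of all 32851 mouse start sites, 5.42% held at least 1 copy and 0.161% held 2 or more. CACNAG was found at 4 of the 11 start sites, those of Notch1, Notch2, Notch3 and 1 of 2 of Hes6, against 36.7% of all start sites. A match is a run of letters and was not tested for binding. Shown 5′ to 3′ are Hes5 and Hes6, Hes genes whose signals took different courses, and Notch3, the member with 2 copies of CACNAG. Capitals mark GTGGGAA in Hes5 and CACNAG in the others, on either strand.
Hes5 (chr4:154960673-154960922, plus strand): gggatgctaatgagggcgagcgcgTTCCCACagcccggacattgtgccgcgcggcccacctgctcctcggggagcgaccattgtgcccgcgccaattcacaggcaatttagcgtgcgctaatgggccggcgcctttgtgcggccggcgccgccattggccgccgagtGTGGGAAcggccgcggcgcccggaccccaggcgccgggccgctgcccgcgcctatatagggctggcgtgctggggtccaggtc
Hes6 (chr1:91413223-91413472, minus strand): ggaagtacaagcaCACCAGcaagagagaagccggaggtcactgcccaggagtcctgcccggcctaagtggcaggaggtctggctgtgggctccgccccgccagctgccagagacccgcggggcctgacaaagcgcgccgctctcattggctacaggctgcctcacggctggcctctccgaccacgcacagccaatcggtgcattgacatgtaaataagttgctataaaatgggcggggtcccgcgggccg
Notch3 (chr17:32166891-32167140, minus strand): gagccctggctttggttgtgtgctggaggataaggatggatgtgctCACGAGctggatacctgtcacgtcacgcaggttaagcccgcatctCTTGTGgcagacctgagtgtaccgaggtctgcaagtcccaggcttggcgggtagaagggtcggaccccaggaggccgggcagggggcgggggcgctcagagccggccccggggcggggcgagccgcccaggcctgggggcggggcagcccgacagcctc
In Hes5 the matches began 226 and 83 bases before the start, the first on the opposite strand. In Hes6 the match began 237 bases before the start, and in Notch3 the matches began 204 and 159 bases before it.

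Signals were corrected for background, put on the log2 scale and quantile normalized, and all values below are on that log2 scale. A probe counted as detected on an array at a detection p under 0.01, which sets its signal against the negative-control beads. Of the 16 member probes, 11 were detected on at least 1 array and entered the test, and they stand for 8 members. The label of the tissue was checked with 5 cortical markers. Emx1, Lhx2 and Tbr1 were detected on all 12 arrays, and Neurod6 was detected on 1 E12.5 array, 3 E15.5 arrays and 4 E18.5 arrays. Emx2 was not well above background on any array. The arrays detected 15227 to 17472 probes each, and the first principal component, with 79.0% of the variance, ordered them by stage. E12.5 replicate 4 stood apart from its stage, at -53.4 on this component, where the rest of its stage lay between -91.6 and -88.2. Its summed signal of 7 ganglionic eminence and interneuron markers (linear scale) was 1041, where replicates 1 to 3 had 168 to 185. Its sum of neuronal markers was also higher, at 14197 against 6114 to 7239. Its sum of cell cycle genes was lower, at 15236 against 19753 to 20888. So was its sum of choroid plexus and midline markers, at 7324 against 16087 to 19755. E15.5 replicate 4 carried a summed signal of choroid plexus and midline markers of 11788, where replicates 1 to 3 had 416 to 574.

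Most members of the pathway fell as the cortex developed. At E18.5, Hes1 had fallen 8.50-fold below E12.5, Notch3 6.46-fold, Hey1 4.91-fold, Hes5 4.30-fold, Dll1 4.09-fold and Notch1 3.82-fold. Hes6 fell 1.47-fold. The fold of Notch3 depended on the background step, and its log2 change was -2.06 without it or with the authors' values, against -2.69 with it. With the minimum fold of 2 and an adjusted p under 0.01 (limma's moderated test, Benjamini-Hochberg over 19652 probes), 3 of the 8 tested members were lower at E15.5 versus E12.5, against 5.18% of all 10662 tested genes. These were Notch3, Dll1 and Hes5, and the count was 5, with Hes1 and Hey1, without E12.5 replicate 4 or without E15.5 replicate 1, and 2, without Dll1, with median scaling, with no background correction or with the authors' values. Likewise, 3 were lower at E18.5 versus E15.5 (5.47% of genes) and 6 at E18.5 versus E12.5 (13.8% of genes). At the adjusted p alone, Notch1, Notch3, Dll1, Hes1, Hes5 and Hey1 were lower in each comparison and Hes6 in those with E18.5, where 21.8%, 23.4% and 34.4% of all genes were lower. Jag1, which entered the test only through 2 E12.5 arrays, also passed at E15.5 versus E12.5, a call lost in 15 of 24 alternatives. The members' median log2 fold changes were -0.98, -0.91 and -2.07 in these comparisons, and those of all tested genes were -0.01, -0.06 and -0.07. With limma, 0 members were higher in any comparison at either threshold (7.73%, 6.95% and 16.3% of all genes were higher at the minimum fold), and 0 at an unadjusted p under 0.05 or with the methods' t-test. The 3 comparisons share arrays, so their counts are not independent. In bulk cortex, fewer cells of a type and less RNA per cell cannot be told apart.

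**Figure D1:**
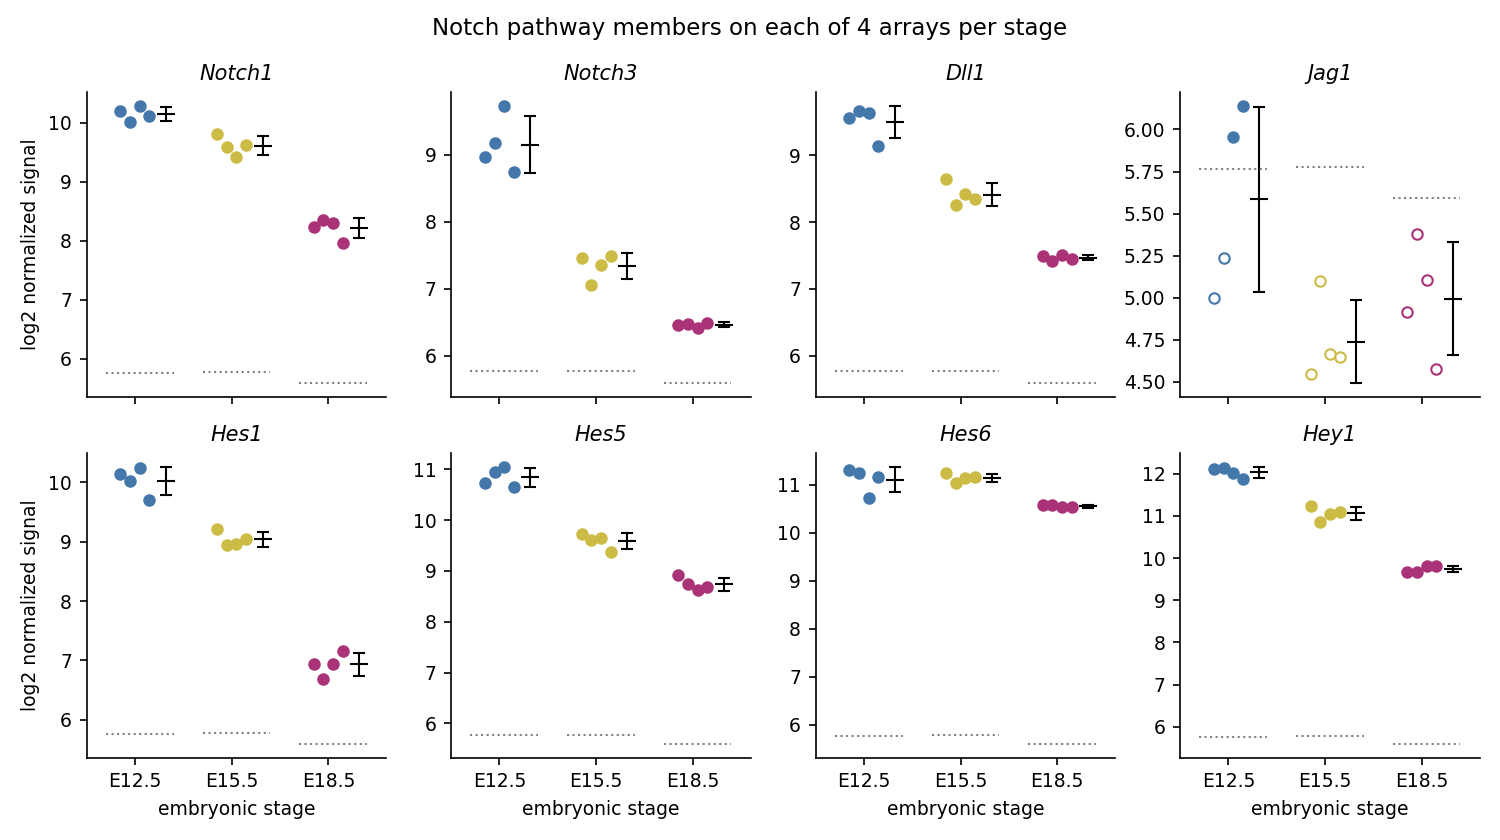
Log2 normalized signal (y axis) of the 8 tested members by embryonic stage (x axis). Each point is 1 array, open where the probe was not detected, black marks are the mean and SD of 4 arrays, and dotted lines are the mean over arrays of the lowest signal among detected probes. Each panel has its own scale, Hes6 stays near 11.1 until E15.5, and Jag1 was detected on 2 E12.5 arrays only.

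Among the receptors, Notch1 and Notch3 fell in both intervals, and Notch2 was not well above background. Notch1, a main receptor of cortical radial glia, read 10.19, 10.01, 10.28 and 10.11 on the E12.5 arrays, 9.81, 9.59, 9.42 and 9.62 on the E15.5 arrays, and 8.24, 8.36, 8.30 and 7.97 on the E18.5 arrays. No stage overlapped another. Its log2 fold change was -0.54 ± 0.11 (SE, n = 4 arrays per stage, as for all below) at E15.5 versus E12.5 (limma adjusted p = 0.000861) and -1.39 ± 0.11 at E18.5 versus E15.5 (adjusted p = 2.15e-07). At E15.5, 68.7% of the E12.5 level was left, and at E18.5 it was 26.2%. With median scaling, the fall by E15.5 did not pass the threshold (adjusted p = 0.0105, and 0.000192 to 0.0105 over all alternatives). Notch3, a receptor also known from the mural cells of vessels, read 8.96, 9.17, 9.73 and 8.75 at E12.5, 7.46, 7.06, 7.35 and 7.48 at E15.5, and 6.46, 6.48, 6.41 and 6.49 at E18.5. The stages were again separate, and the E12.5 arrays were the most scattered. Its log2 fold change was -1.81 ± 0.17 at E15.5 versus E12.5 (adjusted p = 3.21e-06), which left 28.4% of the E12.5 level, and -0.88 ± 0.17 at E18.5 versus E15.5 (adjusted p = 0.000663). Both probes of Notch2 were not well above background on all 12 arrays, with values of 4.43 to 4.87, so Notch2 was not tested.

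Of the ligands, Dll1 fell in both intervals and Jag1 was at the limit of detection. Dll1, the ligand shown by cells that leave the progenitor state, read 9.56, 9.66, 9.64 and 9.14 at E12.5, 8.64, 8.25, 8.42 and 8.34 at E15.5, and 7.49, 7.41, 7.50 and 7.46 at E18.5, with no overlap between stages. The log2 fold change was -1.08 ± 0.12 at E15.5 versus E12.5 (adjusted p = 8.69e-06) and -0.95 ± 0.12 at E18.5 versus E15.5 (adjusted p = 1.77e-05). Jag1, a ligand also used in vessels and the inner ear, was detected on 2 of 4 arrays at E12.5 (5.96 and 6.14 on replicates 3 and 4, and 5.0 and 5.24 on replicates 1 and 2, where it was not detected) and on 0 of 4 at E15.5 and at E18.5. Its values were 4.54, 5.10, 4.66 and 4.65 at E15.5 and 4.91, 5.38, 5.10 and 4.58 at E18.5, and the stages overlapped. The fit gave an adjusted p of 0.00873 for E15.5 versus E12.5, but it ranged from 0.0021 to 0.0595 over 24 alternatives and missed the threshold in 15 of them, among them each fit without E12.5 replicate 3 (0.0315), without E12.5 replicate 4 (0.0242) and without E15.5 replicate 1, 3 or 4 (0.0259, 0.023 and 0.0233) and without E18.5 replicate 1 or 3 (0.0125 and 0.0122). At E18.5 versus E12.5 Jag1 did not pass (adjusted p = 0.0399, and 0.00768 to 0.285 over the alternatives), except without E12.5 replicate 1 (0.00768). No fold is given for Jag1, since E15.5 and E18.5 were not well above background. The 3 probes of Rbpj were not well above background on all 12 arrays, at 4.44 to 4.95, so no change of the nuclear partner of the receptors could be tested.

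Of the Hes and Hey genes, Hes1, Hes5 and Hey1 fell in both intervals, and Hes6 passed the test in the later interval but not in the earlier. Hes1, a repressor that holds progenitors undifferentiated, read 10.14, 10.02, 10.24 and 9.70 at E12.5, 9.22, 8.94, 8.96 and 9.04 at E15.5, and 6.94, 6.69, 6.95 and 7.16 at E18.5. The stages did not overlap, and the E18.5 arrays lay far below the others. The log2 fold change was -0.98 ± 0.13 at E15.5 versus E12.5 (adjusted p = 2.78e-05) and -2.11 ± 0.13 at E18.5 versus E15.5 (adjusted p = 2.26e-08), which left 11.8% of the E12.5 level. Hey1, a relative that also acts as a repressor downstream of Notch, read 12.10, 12.15, 12.02 and 11.86 at E12.5, 11.23, 10.86, 11.06 and 11.10 at E15.5, and 9.68, 9.67, 9.81 and 9.81 at E18.5. Its stages were separate too, with changes of -0.97 ± 0.10 (adjusted p = 4.44e-06) and -1.32 ± 0.10 (adjusted p = 1.07e-07) in the earlier and the later interval.

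Hes5, the Hes gene most closely tied to Notch activity in neural progenitors and the one with 2 GTGGGAA matches shown above, fell in both intervals as well. Its brighter probe read 10.72, 10.95, 11.04 and 10.64 at E12.5, 9.72, 9.62, 9.65 and 9.37 at E15.5, and 8.92, 8.73, 8.62 and 8.67 at E18.5. The change was -1.25 ± 0.11 in the earlier interval (adjusted p = 2.69e-06) and -0.85 ± 0.11 in the later (adjusted p = 2.82e-05), and no stage overlapped another. Its other probe gave -1.31 ± 0.13 and -0.78 ± 0.13, the same calls. Hes6, which unlike its relatives promotes neuronal differentiation, took another course. Its brightest probe read 11.30, 11.24, 10.72 and 11.15 at E12.5, 11.24, 11.04, 11.13 and 11.15 at E15.5, and 10.58, 10.57, 10.53 and 10.52 at E18.5. E12.5 and E15.5 overlapped, with the lowest E12.5 value on replicate 3, and their difference did not pass the test (0.04, 95% interval -0.20 to 0.29, adjusted p = 0.783). E18.5 lay below both, with a change of -0.59 ± 0.11 from E15.5 (adjusted p = 0.000638). The other 2 probes of Hes6 gave -0.57 ± 0.08 and -0.58 ± 0.11 in the later interval and -0.06 ± 0.08 and -0.14 ± 0.11 in the earlier, with the same calls. For E18.5 versus E12.5 the change of Hes6 was -0.55 ± 0.11 (adjusted p = 0.000607), and it missed the threshold with median scaling (adjusted p = 0.0138) and with the methods' t-test (0.011), the range over all alternatives being 1.59e-06 to 0.0138.

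**Figure D2:**
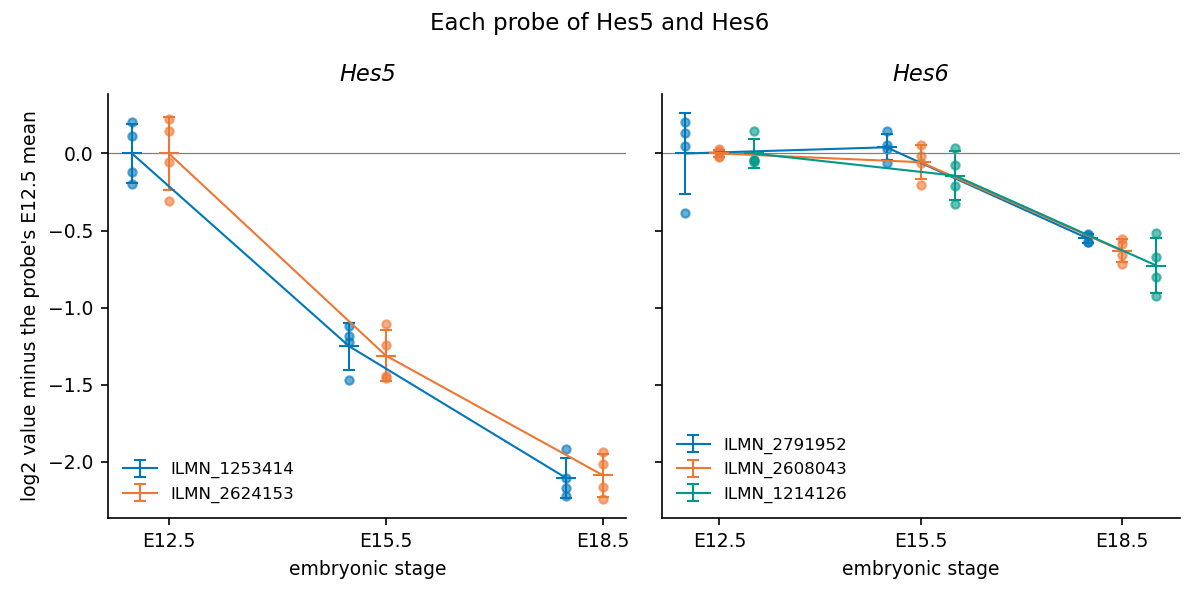
Log2 value of each probe of Hes5 and Hes6 minus that probe's E12.5 mean (y axis) by embryonic stage (x axis). Points are arrays, and lines with bars join the mean and SD of 4 arrays per stage. The 2 Hes5 probes lie near -1.3 at E15.5 and near -2.1 at E18.5, and the 3 Hes6 probes lie between -0.14 and 0.04 at E15.5 and between -0.73 and -0.55 at E18.5.

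Whether a member changed unequally in the 2 intervals was tested as the later change minus the earlier. This difference passed for 2 of 8 tested members and for 18.2% of all tested genes. Hes1 fell more in the later interval (-1.12 ± 0.22, adjusted p = 0.002), and so did Notch1 (-0.85 ± 0.19, adjusted p = 0.00426). The call of Hes1 was lost without E15.5 replicate 1 (adjusted p = 0.0108), and its range over 23 alternatives was 0.000299 to 0.0108. That of Notch1 was lost in 6 of 23, without E15.5 replicate 1, 2 or 4 (0.0214, 0.0117 and 0.015), without both arrays that stood apart (0.0155), with cyclic loess (0.0151) and with the replicate number as a block (0.0108), and ranged from 0.00145 to 0.0214. The difference had the other sign for Notch3, at 0.94 ± 0.29, which did not pass (adjusted p = 0.0277, and 0.00542 to 0.0969 over 23 alternatives). It passed in 5 of them, among them without E12.5 replicate 4 (0.00632). Hes5 (0.39 ± 0.20, adjusted p = 0.147), Hey1 (-0.35 ± 0.17, adjusted p = 0.128), Dll1 (0.14 ± 0.21, adjusted p = 0.658) and Hes6 (-0.63 ± 0.20, adjusted p = 0.0271) did not pass, although Hes6 passed when its tested probes were averaged (-0.53, adjusted p = 0.00424, and 0.00424 to 0.0855 over 23 alternatives). The 95% intervals ran from -0.03 to 0.82 for Hes5 and from -0.31 to 0.58 for Dll1. No difference of the intervals is given for Jag1, which was not well above background at the later stages.

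**Figure D3:**
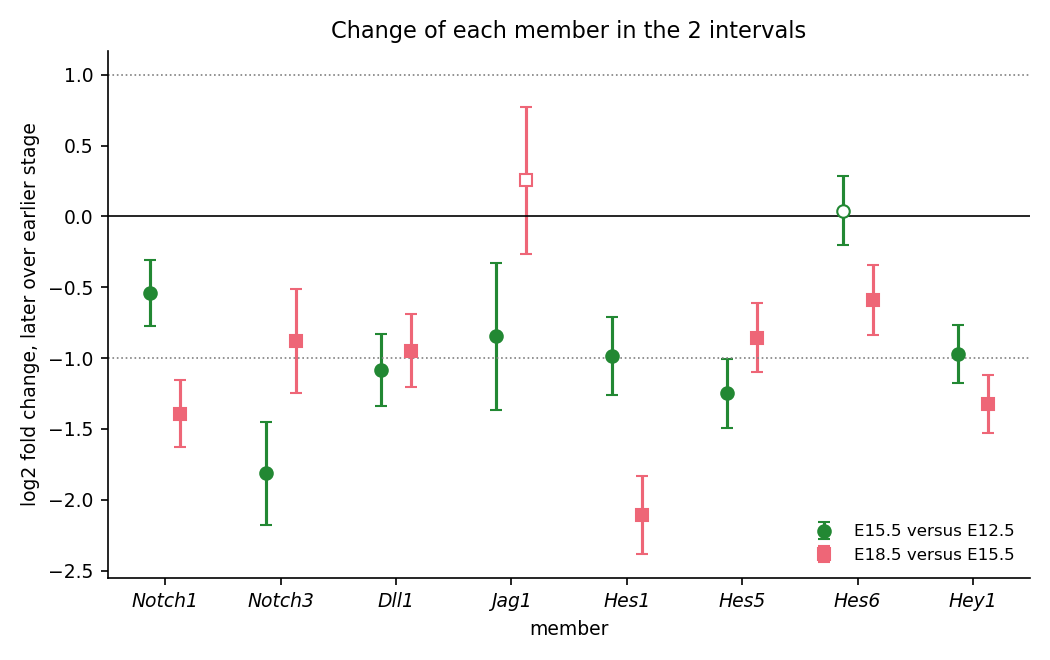
Log2 fold change (y axis) of each tested member (x axis) at E15.5 versus E12.5 (circles) and E18.5 versus E15.5 (squares), with 95% intervals from the limma fit. Open symbols did not pass an adjusted p of 0.01, and dotted lines mark a fold of 2. Hes1 (-2.11) and Notch1 (-1.39) lie lower in the later interval, and the point for Notch3 lies lower in the earlier (-1.81).

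Members of a role were also set against each other within each array, where a scaling common to both genes drops out. The change of the log2 ratio of each pair of tested receptors and of tested Hes and Hey genes was tested over arrays with an exact two-sided permutation test, 7 pairs in 3 comparisons. With 4 arrays against 4 the smallest p is 0.0286, which is 0.0375 after Benjamini-Hochberg adjustment over the 21 tests. The Notch1 to Notch3 ratio rose by 1.27 ± 0.21 at E15.5 versus E12.5 and fell by 0.52 ± 0.14 at E18.5 versus E15.5, both at the smallest exact p. The Hes1 to Hes5 ratio fell by 1.25 ± 0.15 at E18.5 versus E15.5, with all 4 later arrays outside the earlier range (smallest exact p). It changed by 0.27 ± 0.12 at E15.5 versus E12.5 (exact p = 0.0857, adjusted 0.0947). The Hes1 to Hey1 ratio changed by -0.01 ± 0.09 at E15.5 versus E12.5 (exact p = 0.943) and fell by 0.78 ± 0.08 in the later interval, again at the smallest exact p. Hes1, Hes5 and Hey1 all fell relative to Hes6 at E18.5 versus E12.5, by 2.54 ± 0.23, 1.55 ± 0.21 and 1.74 ± 0.14, each at the smallest exact p.

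Other genes of the pathway moved in both directions. A list of 65 further Notch genes was set up by role, of which 58 have an annotated probe and 44 were tested. At the adjusted p alone, 14 of the 44 were lower and 11 higher at E15.5 versus E12.5 (24.2% of all genes were higher), 14 lower and 12 higher at E18.5 versus E15.5 (19.8% of genes higher), and 16 lower and 16 higher at E18.5 versus E12.5 (31.5% of genes higher). Their median log2 fold changes were -0.01, 0.06 and 0.00. Under each of 3 other scalings, 0 of the genes that passed changed sign.

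Hey2 and several targets and feedback genes of Notch were lower late in development. Hey2, another Hey repressor with 4 detected arrays each at E12.5 and E15.5, was not well above background at E18.5, which puts it at least 3.59-fold below E12.5 (adjusted p = 1.42e-08) and at least 1.85-fold below E15.5. Hey2 entered the test only through the earlier arrays, where a fall was the likely outcome. Of the Hes and Hey family beyond the members, 2 genes were tested. The other, Bhlhe40, passed with -0.99 in the earlier interval and 0.70 in the later, and did not pass over the whole span (-0.29). Of 5 other targets and feedback genes, 3 fell and 1 rose at E18.5 versus E12.5 (34.4% and 31.5% of all genes), and Fabp7 did not pass. Nrarp, a feedback inhibitor that Notch itself induces, read 11.12, 11.36, 11.29 and 11.30 at E12.5, 10.96, 10.61, 10.74 and 10.68 at E15.5, and 9.5, 9.51, 9.61 and 9.54 at E18.5, a log2 change of -1.73 ± 0.09 over the whole span (adjusted p = 1.38e-09) with no overlap. Sox9, a factor of neural progenitors, changed by -1.93 ± 0.12, and Id4, which encodes a dominant-negative helix-loop-helix protein, by -3.86 ± 0.12. Dtx1, a Deltex ubiquitin ligase, went the other way. It read 7.10, 6.78, 6.98 and 8.42 at E12.5, 9.15, 9.56, 9.32 and 9.0 at E15.5, and 10.14, 9.84, 9.88 and 9.94 at E18.5, a change of 2.63 ± 0.27 (adjusted p = 1.1e-06), and its high E12.5 value came from replicate 4. Neurog2, a proneural activator of Dll1, read 11.53, 11.45, 11.49 and 11.45 at E12.5 and 11.77, 11.49, 11.54 and 11.46 at E15.5, which did not pass (0.09 ± 0.09, adjusted p = 0.428). At E18.5 it read 8.78, 8.95, 8.95 and 9.02, and fell by 2.64 on the log2 scale from E15.5 (adjusted p = 3.23e-10).

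Ligands and the machinery around them included genes that rose. Of 4 tested noncanonical ligands, Dner, Cntn1 and Cntn6, surface proteins of neurons, were higher over the whole span, and Dlk1 did not pass (0.06 ± 0.10, adjusted p = 0.621). Dner changed by 2.38 ± 0.13 and Cntn1 by 3.96 ± 0.18, and Cntn6 was not well above background at E12.5 and rose at least 4.39-fold (adjusted p = 8.7e-10). The ligand Jag2 was not well above background at E12.5 and rose at least 1.77-fold by E18.5 (adjusted p = 3.96e-05). Cntn6 and Jag2 entered the test only through later arrays, where a rise was the likely outcome. Of 5 tested genes of ligand endocytosis, which ubiquitinate or internalize ligands in the sending cell, 4 were higher and 1 lower at E18.5 versus E12.5. Of all genes, 31.5% were higher and 34.4% lower in this comparison. Mib1, the ligase that ligand signaling depends on, fell by 1.44 on the log2 scale (adjusted p = 9.24e-08). Its relative Mib2 rose by 1.15 ± 0.08, Epn2 by 1.13 ± 0.13 and Neurl1a by 2.33 ± 0.16. The fringe enzymes, which glycosylate the receptors, also split. Mfng read 10.89, 11.14, 10.93 and 11.21 at E12.5, 10.55, 10.81, 10.55 and 10.64 at E15.5, and 8.42, 8.61, 8.77 and 8.40 at E18.5, a change of -2.08 ± 0.11 in the later interval (adjusted p = 7.32e-09). Rfng rose by 1.34 ± 0.17 over the whole span (adjusted p = 5.53e-06).

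Of 7 genes of receptor cleavage, 2 were lower and 2 higher at E18.5 versus E12.5, where 34.4% of all genes were lower and 31.5% higher. These shares also stand beside the counts of the next 2 roles. Only Aph1b, a subunit of gamma-secretase, passed the minimum fold among the cleavage genes (1.09 ± 0.11). The probes of its relative Aph1a disagreed in size. The probe of higher mean changed by -0.57 ± 0.10, a call lost with median scaling, and the other was not well above background at E18.5 and at least 10.7-fold lower there. Of 7 inhibitors and turnover genes, 3 were lower and 2 higher, by their probe of highest mean. Further probes of Fbxw7 disagreed. A probe not well above background at E12.5 rose at least 2.56-fold by E18.5 (adjusted p = 2.53e-09), and another changed by -0.05, which did not pass (adjusted p = 0.771). The former entered the test only through E18.5 arrays, where a rise was the likely outcome. Numb, the classical Notch antagonist, changed by -1.11 ± 0.09 and the ubiquitin ligase Nedd4 by -1.05 ± 0.09. Dtx4, another Deltex gene, changed by -1.29 ± 0.13 in the earlier interval and by 2.11 ± 0.13 in the later (adjusted p = 4.09e-06 and 1.99e-08). Of 7 coactivators and corepressors of Rbpj, 3 were lower and 1 higher, and 0 passed the minimum fold at E18.5 versus E12.5 by their probe of highest mean. The brightest, Maml2 and Cir1, changed by -0.36 ± 0.11 and 0.56 ± 0.14, but the call of Maml2 was lost with median scaling and cyclic loess, and the 2 other Cir1 probes gave -0.02 and -0.11, which did not pass. The probes of Kdm5a disagreed, with 0.29 ± 0.15 for the probe of highest mean, which did not pass, and -1.1 for another (adjusted p = 2.29e-06), which was detected on 1 of 4 E18.5 arrays. The receptor Notch4 fell by 0.47 on the log2 scale at E18.5 versus E15.5 (adjusted p = 0.00768), a call lost with median scaling and cyclic loess. Over the whole span Notch4 changed by -0.36 ± 0.13, which did not pass (adjusted p = 0.0254). Another probe of Notch4 passed there, at -0.42 ± 0.11 (limma adjusted p = 0.00429). It was not well above background at E12.5 or at E18.5.

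**Figure D4:**
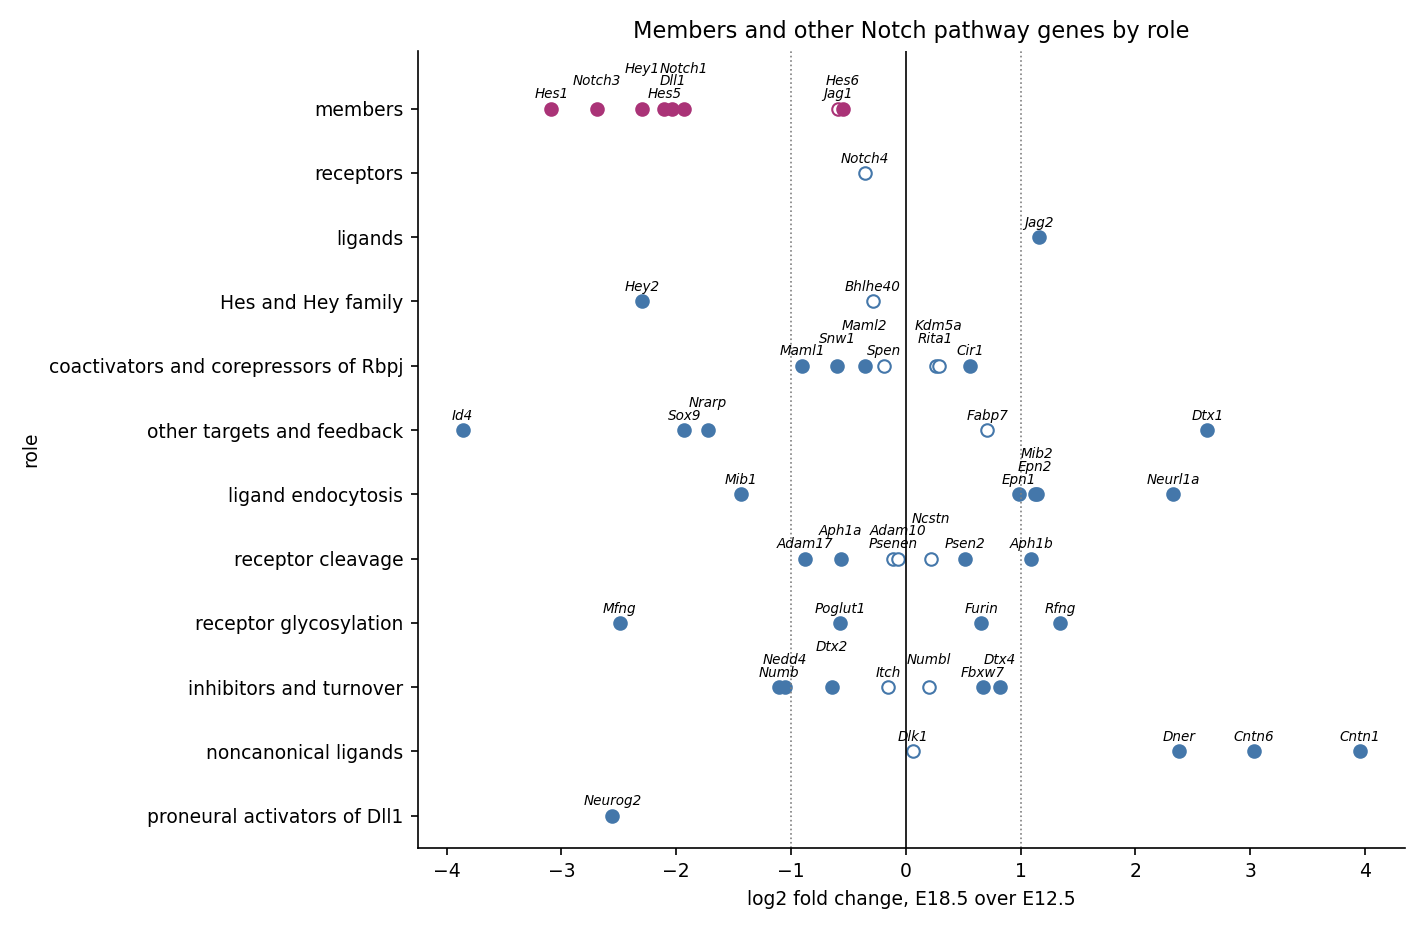
Log2 fold change at E18.5 over E12.5 (x axis) of the tested members (top row) and of 44 other genes of the pathway, by role (y axis). Each point is 1 gene, open where the adjusted p was not under 0.01, and dotted lines mark a fold of 2. Members lie between -3.09 and -0.55, and the other genes between -3.86 and 3.96 around a median of 0.00. Jag1, Hey2, Jag2 and Cntn6 were not well above background at 1 of these stages, so their points are fitted values, and the text gives bounds for Hey2, Jag2 and Cntn6.

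The genes with the courses most like each member were found as those with the smallest root mean square difference of centered log2 values over 12 arrays, among 10661 other tested genes. For Hes1 these were Cdc25c, Fam83d and Cdk1 (differences of 0.10, 0.11 and 0.13). For Hey1 they were Cenpw, Nudt5 and Zfp36l1 (0.07, 0.07 and 0.09), and for Notch1 Cebpd, Psat1 and Sox21 (0.12, 0.14 and 0.14). For Notch3 they were H2ac8, Mob3b and Pcsk6 (0.16, 0.20 and 0.21). For Dll1 they were Mre11a, Aaas and Katnal2 (0.08, 0.08 and 0.11), for Hes5 Jpt2, Cep152 and Aaas (0.13, 0.13 and 0.14), and for Hes6 Uaca, Swt1 and Tut1 (0.09, 0.10 and 0.10). Those for Jag1 were Rnf20, Nampt and Ptges3 (0.19, 0.19 and 0.20), with most of its own values not well above background. Dll1 was the closest member to Hes5, at rank 5, and Hes5 the closest to Dll1, at rank 33. The closest member to Hes1 was Hey1, at rank 214. The 12 points share their stages, and the likeness is a description.

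The members' decline ran beside changes in the markers of several cell types, whose part in it was not tested. The summed signal (linear scale) of 8 cell cycle genes ran from 15236 to 20888 on E12.5 arrays, from 7149 to 9022 on E15.5 arrays and from 1953 to 2314 on E18.5 arrays, and all 8 were lower over the whole span. Of 8 radial glia markers, 5 were lower and 2 higher over the same span. At the adjusted p alone, as for these counts, 34.4% of all genes were lower and 31.5% higher over that span. Prom1 changed by -3.27 and Nes by -2.38, Slc1a3 by 1.33 and Tnc by 5.06, and Pax6 was not well above background at E18.5. Pax6 thus entered the test only through earlier arrays, where a fall was the likely outcome. The summed radial glia signal ran from 11473 to 12136 on E12.5 arrays, from 11858 to 12611 on E15.5 arrays and from 8564 to 9444 on E18.5 arrays. Intermediate progenitor markers, by their probe of highest mean, held to another schedule, with 3 of 5 higher and 0 lower in the earlier interval and all 5 lower in the later. Of all genes, 24.2% were higher and 21.8% lower in the earlier interval, and 23.4% were lower in the later. A second probe of Eomes, however, fell in the earlier interval too (-0.47 ± 0.12, limma adjusted p = 0.0053). The sums of the intermediate progenitor markers were 7712 to 9381, 11153 to 12755 and 3288 to 3741 at the 3 stages. Neuronal markers rose, all 6 of them over the whole span, with sums of 6114 to 14197, 23058 to 26956 and 57099 to 60042.

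Markers of other cell types also differed between stages, and their part in the members' values was not tested. Ganglionic eminence and interneuron markers summed to between 168 and 1041 on E12.5 arrays, 2135 and 3257 on E15.5 arrays, and 8113 and 8793 on E18.5 arrays, with 0 of 7 detected on 3 of the E12.5 arrays. Choroid plexus and midline markers summed to between 7324 and 19755 on E12.5 arrays, 416 and 11788 on E15.5 arrays, and 173 and 262 on E18.5 arrays, and all 5 were lower over the whole span. Of these, Folr1, Clic6 and Kcne2 were not well above background on any E18.5 array. They entered the test only through earlier arrays, where a fall was the likely outcome. Notch1, Notch3, Jag1 and Hey1 are also expressed in vessels, whose markers were mostly higher late. Endothelial markers summed to 2832 to 3361, 3031 to 3313 and 3489 to 3884 at the 3 stages, with 7 of 10 higher and 1 lower over the whole span. Pericyte and smooth muscle markers summed to 248 to 287, 449 to 494 and 520 to 608, with 4 of 7 higher and 0 lower. Pdgfrb, Rgs5, Cspg4, Kcnj8 and Abcc9 were not well above background on any E12.5 array. Pdgfrb, Cspg4 and Abcc9 were not so on any E15.5 array either, and entered the test only through E18.5 arrays. Of 6 astrocyte markers 4 were higher and 2 lower over the whole span, and their sums fell from 9207 to 9522 at E12.5 to 4416 to 5017 at E18.5. All 5 markers of the oligodendrocyte lineage and 3 of 6 of microglia were higher, and the 1 tested marker of meninges did not pass. Beside all these marker counts over the whole span, 31.5% of all genes were higher and 34.4% lower. Gfap, Aqp4, Aldh1l1, Slc1a2, C1qa, P2ry12 and the endothelial markers Tie1 and Ly6c1 were not well above background on any E12.5 array. Neither were Olig2 and Sox10 at E12.5 or E15.5. These genes entered the test only through later arrays, where a rise was the likely outcome. Without the 2 arrays that stood apart, 6 of 8 members were again lower at the minimum fold at E18.5 versus E12.5. At E15.5 versus E12.5, however, 5 rather than 3 were lower without them, as Hes1 and Hey1 crossed a fold of 2, and the same 5 were lower without E12.5 replicate 4 alone and without E15.5 replicate 1 alone.

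**Figure D5:**
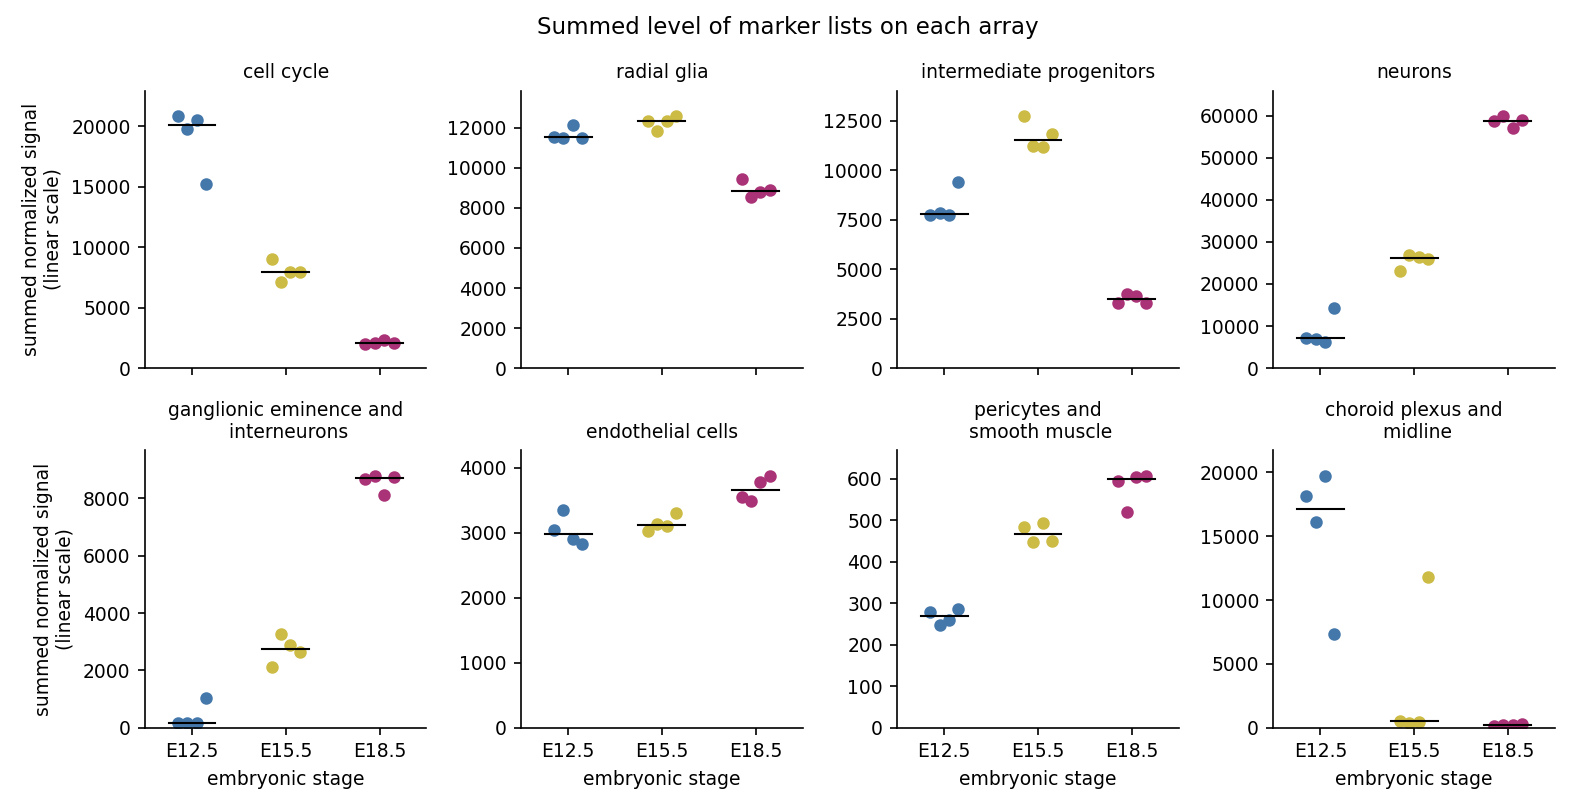
Summed normalized signal on a linear scale (y axis) of marker lists by embryonic stage (x axis), with each panel on its own scale from 0. Points are arrays and lines are medians of 4 arrays per stage. Cell cycle genes have medians of 20141 at E12.5, 7960 at E15.5 and 2056 at E18.5, and neuronal markers are higher at each later stage. E12.5 replicate 4 stands out in the panels of ganglionic eminence, choroid plexus, neurons and cell cycle, and E15.5 replicate 4 in that of choroid plexus.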

How the data were processed

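Cortical RNA of 12 embryonic mouse samples, 4 per stage, was measured on 12 arrays. The authors deposited, for each probe and array, a signal (mean bead intensity on a linear scale, not normalized) and a detection p-value. A second table the authors deposited holds log2 values, whose columns all have a median of 6.51. Quantile normalization of the log2 signals, without a background step, gives the same values to within 5.00e-09. The submitters' notes on processing name lumi, whose version is not given in the sources used here.

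Platform annotation gives 1 symbol for 34885 probes, several for 18 and none for 10378. RefSeq held the gene ID of 34807 named probes, with 0 symbols changed. Signals were corrected by the normal-exponential model with limma 3.58.1 in R 4.3.3 (parameters from the detection p-values, offset 16), put on the log2 scale and quantile normalized. Probes with a detection p under 0.01 on at least 1 array (19652) entered 1 limma model of stage means over 12 arrays. The 3 comparisons and the difference of the intervals were adjusted by Benjamini-Hochberg, each over all these probes. A gene stands for its tested probe of highest mean. Calls needed an adjusted p under 0.01 and, where stated, a fold of at least 2. The fit was tested on simulated data. Where a stage was not detected on any of its arrays, a bound was set against the higher of each array's lowest detected signal and the probe's own. The number of arrays limits the precision. Figures were drawn with matplotlib.

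The members and lists were chosen with earlier results of these data known. All members are named with all their probes. Other pathway genes are counted by role and named where they passed a fold of 2, or by the highest mean where none did. Aph1a, Kdm5a, Dlk1, Bhlhe40, Fabp7, the single marker genes and the further probes of Cir1 and Fbxw7 were named after their values were seen. Alternatives were other background, scaling and detection settings, the authors' log2 table, array weights, an intensity trend, fits restricted to a pair of stages, the methods' t-test, a replicate block, averaged probes, other thresholds and each array left out.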

Additional observations from a re-analysis of the deposited data

Results flagged for a closer look

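On 1 probe of Hes6 (ILMN_1214126), E12.5 replicate 3 read 10.02 and the next highest array of that stage 9.84, a gap of 0.931 of the range of the 4 arrays. That is above Dixon's critical value for 4 arrays at the 95% level, which chance alone passes in some of 33 such groups, and it was the 1 group of the 33 that did. On the other 2 probes of Hes6 no array passed that value. The change of Hes1 differed between the later and the earlier interval by -1.12 on the log2 scale, and that of Notch1 by -0.85, each by a test of the difference itself. Both fell more in the later interval. This test passed for 18.2% of all tested genes. Of 23 alternatives, the call of Hes1 was lost in 1 and that of Notch1 in 6.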

How the results depend on the processing

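Among 28 alternatives, the 6 members lower at the minimum fold at E18.5 versus E12.5 were the same genes in each refit at that fold, and 0 results reversed. At E15.5 versus E12.5 the count of 3 became 5 with array weights, 6 with a minimum fold of 1.5, 7 (Jag1 included) with no minimum fold, 4 with cyclic loess, and 2 with median scaling, no background correction or the authors' values. With 1 array left out it ranged from 3 to 5, with 5 without E12.5 replicate 4 or E15.5 replicate 1, and without both arrays that stood apart, a choice made after seeing the data, it was 5. At E18.5 versus E15.5 the count of 3 became 7 with a minimum fold of 1.5 and 7 with none, and 4 without E15.5 replicate 2, which added Dll1. Over all probes, 2364, 2316 and 5533 were called, and 1143, 1181 and 3462 with no background correction or the authors' values. With no background correction the change of Notch3 at E18.5 versus E12.5 was -2.06, against -2.69. Median scaling moved the median of all genes to 0.13 at E18.5 versus E12.5, against -0.07, and the share of lower genes among calls to 34.0%, against 45.9%, and at E15.5 versus E12.5 to 29.5%, against 40.1%. Of the pathway genes that passed, 3, 4 and 4 were lost with median scaling in the 3 comparisons, 1, 3 and 1 with cyclic loess and 0, 1 and 0 with no background correction.

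Arrays were treated as unpaired, since nothing used here says that the replicate numbers pair them. Deviations of same-numbered arrays correlated at -0.33 to 0.27, over 0.1 in 3 of 12 cases, which with 4 arrays per stage cannot settle whether they are paired. With the number as a block, 3, 3 and 6 members were lower at the minimum fold, as without it. Jag1 is limited by signals near background, Notch2 and Rbpj were not well above it, and all members by 4 arrays per stage.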
